A study of Mus musculus with 6 samples.

Results

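The fibroblast growth factor (FGF) receptors and feedback genes examined here are 10 genes fixed by name: the ligand gene Fgf18, the receptor genes Fgfr1, Fgfr2, Fgfr3 and Fgfrl1, and the feedback and target genes Spry1, Spry2, Spry4, Dusp6 and Etv5. All 10 were among the 13158 genes deposited with counts, and 9 of them were among the 9512 genes abundant enough to test. Cells came from C57BL/6 mouse forelimbs at embryonic day 13.5, labelled wild-type and untreated. The cells of both groups carried the same alleles: Sox9-CreERT2, a tamoxifen-dependent recombinase under Sox9 control, a Rosa26-tdTomato reporter that it switches on, and ScxGFP, a reporter of the tendon factor Scleraxis. Cells positive for both reporters were sorted from the proximal or the distal forelimb, with 3 libraries for each region. The Cre label depends on Sox9 activity while tamoxifen acts and need not reflect Sox9 activity at sorting, so the gate may hold more than one state of cell. The time of induction is not given in the sources used here.

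FGF ligands bind receptor tyrosine kinases together with heparan sulfate, and the receptors signal through adaptor proteins to the RAS and ERK kinase cascade. ERK activity raises transcription of genes that then damp the pathway. Sprouty proteins act on signalling upstream of ERK, and the phosphatase DUSP6 removes phosphate from ERK itself. In the limb, FGFs keep mesenchyme growing under the distal ectoderm, and later FGF18 from perichondrium acts on cartilage through FGFR3.

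Libraries were made by bulk MARS-seq, which counts the 3' ends of transcripts. Total counts ran from 1585631 to 2623788 per library, so that a gene without a count could still have a level of up to 1.08 to 2.01 CPM (3 counts). CPM is the usual unit of counts relative to a library's size, here with sizes scaled by the TMM method, which corrects for differences in composition. The gate genes Sox9 and Scx were detected in every library and were higher in distal ones, Sox9 by 3.20-fold (edgeR adjusted p = 0.000599) and Scx by 2.22-fold (0.0343). Their part in the distal receptor differences was not tested. Summed muscle markers stood at 195 to 539 CPM in proximal and 32.3 to 45 CPM in distal libraries, with 5 of 8 markers deposited. Summed cartilage precursor markers stood at 333 to 642 CPM in proximal and 1190 to 2340 CPM in distal libraries, with 8 of 8 deposited. Proximal library 1 and distal library 3 lay at the 2 ends of the second principal component, which held 30.4% of the variance between libraries. The first held 41.2% and separated the regions. Proximal library 1 also had the largest share of counts from the ribosomal RNA precursor Rn45s, at 11.7% beside 2.2% to 6.81% in the others. With Rn45s left out of the fit, 2 members passed in each direction, as in the main fit.

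The ligand gene Fgf18 and the feedback inhibitor Spry4 were higher in proximal progenitors, and the receptor genes Fgfr2 and Fgfrl1 were higher in distal ones, each by a factor of 1.70 to 2.04. Fgfr1, Spry1, Spry2 and Etv5 did not pass the test, nor did Dusp6, which had the largest fitted difference of the 9 tested members. Calls are adjusted p-values under 0.05 in edgeR's quasi-likelihood test over all tested genes. By this rule 2 of 9 tested members rose distally and 2 proximally, beside 1.11% and 2.27% of all tested genes, or 3.39% in either direction. The members were chosen with such results known, so these shares are a description. The median log2 fold change (distal over proximal) of the 9 members was 0.0064, beside 0.0092 for all tested genes. In bulk samples, fewer cells of a type and less RNA per cell cannot be told apart.

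**Figure D1:**
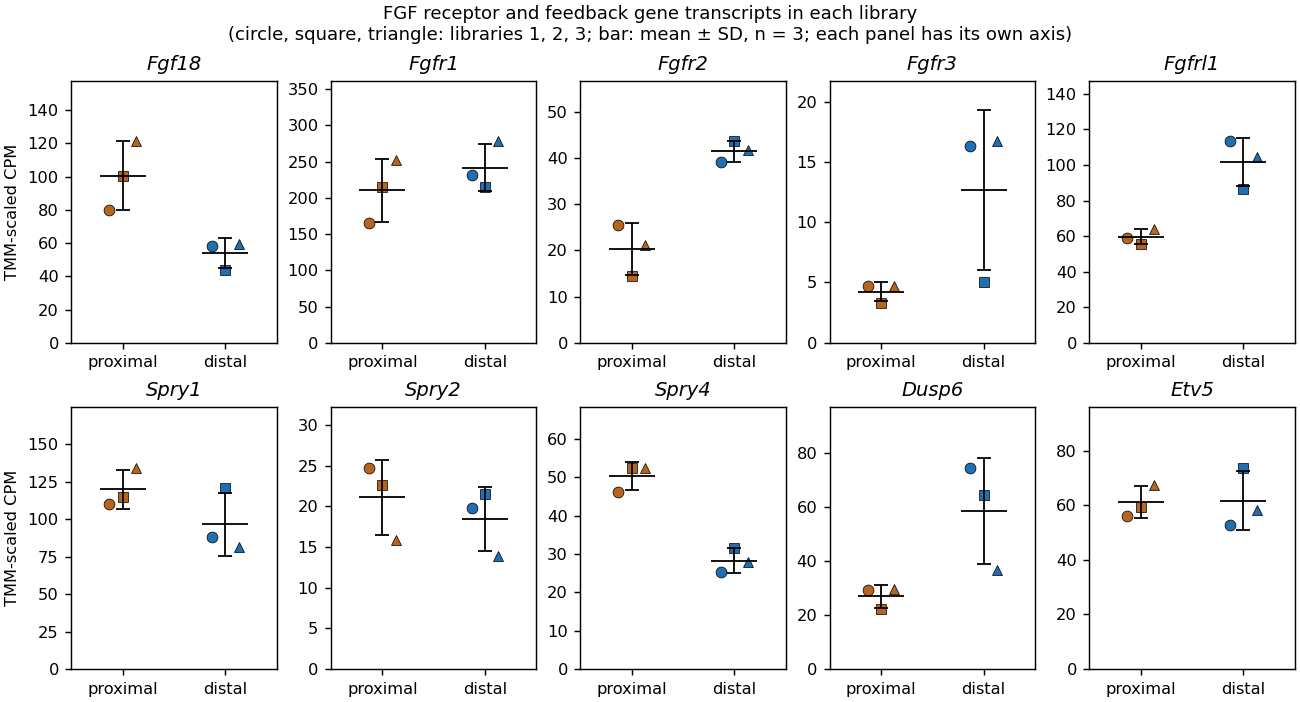
Level of each gene in each library, in TMM-scaled CPM on axes that start at 0 and differ between panels; points are libraries (circle 1, square 2, triangle 3) and bars are the mean ± SD (n = 3). The 3 distal libraries lie above the 3 proximal ones for Fgfr2, Fgfr3, Fgfrl1 and Dusp6 and below them for Fgf18 and Spry4. Over all tested genes, they lie above for 7.53% and below for 8.67%. Fgfr3 was not tested, and distal library 2 stood at 5.06 CPM beside 4.68 CPM in proximal library 1.

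FGF18 is a secreted ligand known for its roles in growth plate cartilage and bone. Fgf18 stood at 79.6, 100.5 and 121 CPM in proximal libraries 1 to 3 and at 58.4, 43.6 and 59.6 CPM in distal libraries 1 to 3. Every proximal library lay above every distal one, which was the case for 8.67% of all tested genes. The log2 fold change was -0.90 (SE 0.21, 95% interval -1.37 to -0.44; edgeR adjusted p = 0.0448), a 1.87-fold higher level in proximal libraries. The gene lies on the minus strand of chromosome 11, from 33117430 to 33147400 in GRCm38 (mm10). Its call rested on all but 1 library: the adjusted p was 0.125, 0.175 and 0.0532 without distal libraries 1, 2 and 3, and 0.155 and 0.224 without proximal libraries 2 and 3, whereas it was 0.014 without proximal library 1. It was also lost with limma-voom (adjusted p = 0.0512) and when libraries were scaled by their totals alone (0.102). Summed muscle markers, like Fgf18, were higher in proximal libraries (195 to 539 CPM beside 32.3 to 45 CPM). Within the proximal group they stood at 440, 539 and 195 CPM in libraries 1 to 3, and Fgf18 was highest in library 3. The part of muscle cells in the Fgf18 difference was not tested.

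FGFR2 is a receptor tyrosine kinase whose splice forms IIIb and IIIc are typical of epithelium and mesenchyme, a distinction that 3' end counts do not make. Fgfr2 stood at 25.4, 14.4 and 21.2 CPM in proximal libraries 1 to 3 and at 39.1, 43.6 and 41.8 CPM in distal libraries 1 to 3. The distal libraries were close to one another, and each lay above every proximal one, as for 7.53% of all tested genes. The log2 fold change was 1.03 (SE 0.24, 95% interval 0.50 to 1.57; edgeR adjusted p = 0.0459), a 2.04-fold difference. Leaving out distal library 1, 2 or 3 (adjusted p = 0.129, 0.144 and 0.0805) or proximal library 2 or 3 (0.187 and 0.146) ended the call, and leaving out proximal library 1 did not (0.0244). Surface epithelium markers were near 0, with 3 of 6 deposited and a summed level of 4.01 to 6.62 CPM in proximal and 1.48 to 5.01 CPM in distal libraries. The part of epithelial cells in the Fgfr2 difference was not tested.

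FGFRL1 is a receptor-like protein that binds FGFs but lacks the tyrosine kinase domain, and its gene lies on the plus strand of chromosome 5, from 108692382 to 108706924. Fgfrl1 stood at 58.9, 55.7 and 64.0 CPM in proximal libraries 1 to 3 and at 113, 86.6 and 105 CPM in distal libraries 1 to 3. The proximal values lay close together, and the lowest distal value was above all of them, as for 7.53% of all tested genes. The log2 fold change was 0.77 (SE 0.17, 95% interval 0.38 to 1.15; edgeR adjusted p = 0.0391), a 1.70-fold difference. The adjusted p rose to 0.0554 to 0.181 when any 1 of the 6 libraries was left out (0.065, 0.178 and 0.108 without proximal libraries 1, 2 and 3, and 0.181, 0.0554 and 0.0835 without distal libraries 1, 2 and 3), and to 0.0791 with library totals alone as the scale.

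FGFR1 is the main FGF receptor kinase of limb mesenchyme. Fgfr1 stood at 165, 215 and 252 CPM in proximal libraries and at 232, 216 and 278 CPM in distal libraries, and the regions overlapped. Its log2 fold change was 0.20 (SE 0.18) and did not pass (edgeR adjusted p = 0.847), with a 95% interval of -0.19 to 0.59, which leaves out changes as large as the fitted ones of Fgfr2 and Fgfrl1. Its fitted value changed sign, to -0.06, when proximal library 1 and distal library 3 were left out together.

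FGFR3 restrains growth of cartilage and is expressed by proliferating chondrocytes. Fgfr3 fell under the minimum count of the test: it had 7, 6 and 13 counts in the proximal libraries, numbered 1 to 3, and 33, 8 and 30 in the distal ones. In CPM the proximal libraries stood at 4.68, 3.31 and 4.68 and the distal ones at 16.3, 5.06 and 16.7, so that distal library 2 lay close above the proximal range. Pooled, 71 distal against 26 proximal counts gave a ratio of 3.09 (exact 95% interval 1.94 to 5.03, which covers counting error only). Tested without the minimum count, the log2 fold change was 1.58 (SE 0.46) and did not pass (edgeR adjusted p = 0.103). Without distal library 2, its lowest distal library, Fgfr3 met the minimum count and passed at 1.94 (SE 0.35, edgeR adjusted p = 0.0258). Without proximal library 1, 2 or 3 it was tested and did not pass (edgeR adjusted p = 0.151, 0.403 and 0.309). In these fits Fgfr3 met the minimum only through distal libraries, where it is high. It was not tested without distal library 1 or 3. Distal library 2 also had the lowest distal value of Fgfrl1 and the lowest distal sum of cartilage precursor markers, at 1190 CPM beside 1630 and 2340 CPM in distal libraries 1 and 3. Fgfr2, in contrast, was highest in distal library 2, at 43.6 CPM beside 39.1 and 41.8 CPM in distal libraries 1 and 3. The part of cartilage precursors in the Fgfr3, Fgfrl1 and Fgfr2 differences was not tested.

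**Figure D2:**
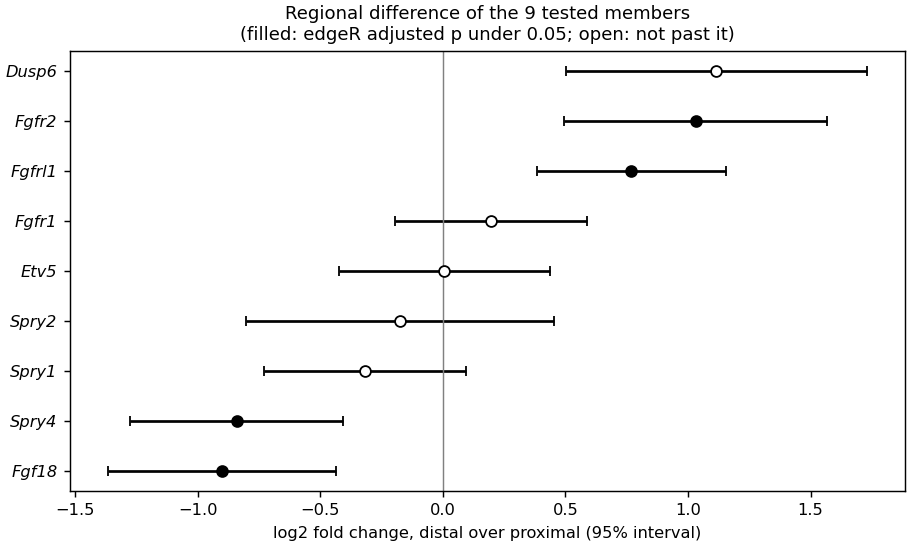
Fitted log2 fold change, distal over proximal, of the 9 tested genes with 95% intervals from edgeR; filled points passed an adjusted p of 0.05. Fgfr2 and Fgfrl1 are filled on the distal side and Fgf18 and Spry4 on the proximal side, while Dusp6 at 1.12 is open.

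Ratios of raw counts within a library do not depend on how libraries are scaled, and transcript length cancels when the same ratio is compared between regions. Each proximal library held 3.13, 7.00 and 5.71 Fgf18 counts per Fgfr2 count and each distal library 1.49, 1.00 and 1.43. The regions did not overlap, and the mean log2 ratio, distal minus proximal, was -1.96 (SD 0.603 in proximal and 0.317 in distal libraries, n = 3). The two-sided exact permutation p was 0.1, the smallest that 3 against 3 libraries allow (0.2 after adjustment over the 4 ratios tested). Fgf18 and Fgfr2 had each separated the regions, in opposite directions. The lack of overlap in their ratio and its permutation p were therefore fixed in advance and are no separate support.

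Per 100 Fgfr1 counts, Fgfrl1 counts numbered 35.8, 26 and 25.4 in proximal and 48.8, 40.2 and 37.7 in distal libraries, a log2 difference of 0.55 without overlap (exact permutation p = 0.1). For Fgfr2 the values were 15.4, 6.68 and 8.43 in proximal and 16.8, 20.2 and 15 in distal libraries. The value of proximal library 1 overlapped the distal range, and the log2 difference was 0.85 (exact permutation p = 0.2). For Fgfr3 the values were 2.85, 1.54 and 1.86 in proximal and 7.04, 2.35 and 6.01 in distal libraries, which overlapped through distal library 2 (log2 difference 1.2, exact permutation p = 0.2). All 4 ratios had an adjusted p of 0.2.

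**Figure D3:**
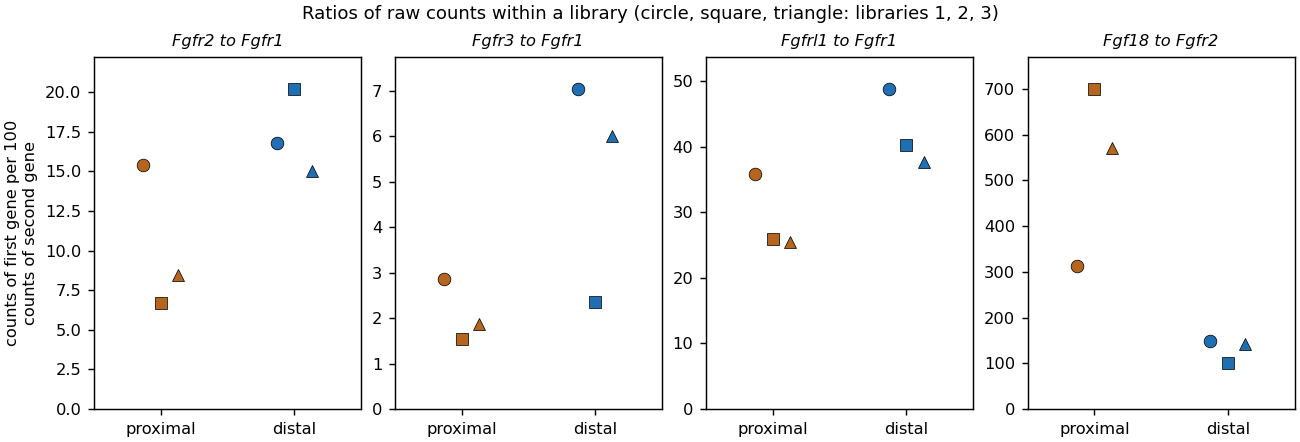
Raw counts of one gene per 100 counts of another in each library (circle, square and triangle for libraries 1, 2 and 3), on axes that start at 0. The Fgf18 to Fgfr2 and Fgfrl1 to Fgfr1 ratios separate the regions, while proximal library 1 and distal library 2 overlap the other region for Fgfr2 and Fgfr3 respectively.

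The promoters of the called receptor and ligand genes are shown because Fgfr2 and Fgfrl1 were higher in the same region, and Fgf18 in the other. Each is RefSeq sequence of GRCm38.p6 from 250 bases before to 50 bases after the annotated start, written 5' to 3' on the gene's strand. Capitals mark the core GGAAG, or its reverse complement CTTCC, which is shared by sites of ETS factors such as ETV5.

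Fgfr2, chr7:130266759-130267058, minus strand: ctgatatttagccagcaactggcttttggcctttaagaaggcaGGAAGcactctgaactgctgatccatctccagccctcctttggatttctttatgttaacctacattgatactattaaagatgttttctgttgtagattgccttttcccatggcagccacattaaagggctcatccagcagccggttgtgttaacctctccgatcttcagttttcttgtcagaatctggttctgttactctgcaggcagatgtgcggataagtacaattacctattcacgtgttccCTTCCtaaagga

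Fgfrl1, chr5:108693979-108694278, plus strand: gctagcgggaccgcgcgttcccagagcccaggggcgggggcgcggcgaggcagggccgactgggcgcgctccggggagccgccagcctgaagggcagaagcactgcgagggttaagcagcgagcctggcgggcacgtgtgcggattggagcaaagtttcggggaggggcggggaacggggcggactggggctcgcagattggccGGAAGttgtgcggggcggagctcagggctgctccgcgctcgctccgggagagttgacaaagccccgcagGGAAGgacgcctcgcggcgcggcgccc

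Fgf18, chr11:33147351-33147650, minus strand: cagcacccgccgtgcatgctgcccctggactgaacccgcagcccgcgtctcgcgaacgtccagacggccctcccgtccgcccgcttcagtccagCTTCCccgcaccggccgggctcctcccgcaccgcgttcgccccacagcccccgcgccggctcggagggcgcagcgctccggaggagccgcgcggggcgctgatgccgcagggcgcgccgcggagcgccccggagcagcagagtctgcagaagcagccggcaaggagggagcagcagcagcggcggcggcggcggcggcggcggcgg

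The Fgfr2 and Fgfrl1 promoters differ in composition: G and C make up 43.7% of the Fgfr2 promoter, which holds 4 CpG dinucleotides, and 73.7% of the Fgfrl1 promoter, which holds 37. The Fgf18 promoter had 78.7% G and C and 47 CpG dinucleotides. The median promoter had 52.7% and 7 CpG dinucleotides. The ETS core occurred 2 times in Fgfr2, 2 times in Fgfrl1, 1 time in Fgf18 and 2 times in Dusp6 on both strands together. This is a common sequence, found in 71.4% of the 32851 promoters in the table and in 8 of the 10 promoters of the 8 genes matched there. The longer core CCGGAA (reverse TTCCGG), which overlaps GGAAG where a G follows, was in 14.9% of all promoters and in those of Fgfrl1 and Spry2. A match describes these letters and is not evidence of a bound site.

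Among the feedback genes, Spry4 alone passed the test. It encodes a Sprouty inhibitor of receptor tyrosine kinase signalling and lies on the minus strand of chromosome 18, from 38586247 to 38601415. Spry4 stood at 46.2, 52.4 and 52.5 CPM in proximal libraries 1 to 3 and at 25.2, 31.6 and 27.9 CPM in distal libraries 1 to 3. Every proximal library thus lay above every distal one, as for 8.67% of all tested genes. The log2 fold change was -0.84 (SE 0.20, 95% interval -1.28 to -0.41; edgeR adjusted p = 0.0451), a 1.79-fold higher level in proximal libraries. The adjusted p missed the threshold when proximal library 2 or 3 (0.178 and 0.183) or distal library 1, 2 or 3 (0.207, 0.0916 and 0.096) was left out, with DESeq2 (0.0615) and with library totals alone (0.106).

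The other Sprouty genes overlapped between regions. Spry1 stood at 110.4, 115 and 135 CPM in proximal and at 88.1, 121 and 81.3 CPM in distal libraries, so that distal library 2 lay within the proximal range. Its log2 fold change was -0.32 (SE 0.19, 95% interval -0.73 to 0.10; edgeR adjusted p = 0.666). Spry2 stood at 24.8, 22.6 and 15.8 CPM in proximal and at 19.8, 21.5 and 13.9 CPM in distal libraries, with library 3 lowest in both regions. Its log2 fold change was -0.18 (SE 0.28, 95% interval -0.80 to 0.45; edgeR adjusted p = 0.939), and it was 0.13 after proximal library 1 and distal library 3 were both dropped. Both intervals include 0 and end short of the fitted value of Spry4. Whether Spry4 differed more than Spry1 or Spry2 was not tested.

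ETV5 is an ETS transcription factor whose gene is a widely used readout of FGF signalling. Etv5 stood at 56.2, 59.6 and 67.6 CPM in proximal and at 52.9, 73.9 and 58.5 CPM in distal libraries, with the highest and the lowest value both in distal ones. Its log2 fold change was 0.0064 (SE 0.19; edgeR adjusted p = 0.998), and the 95% interval of -0.42 to 0.44 leaves out changes of the size fitted for the 4 called genes. Its fitted value changed sign in several alternatives, within -0.14 to 0.11.

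Dusp6 did not pass the test, though every distal library lay above every proximal one, as for 7.53% of all tested genes. It stood at 29.4, 22.1 and 29.5 CPM in proximal libraries 1 to 3 and at 74.7, 64.5 and 36.8 CPM in distal libraries 1 to 3. Distal library 3 was low, closer to the proximal libraries than to the other distal ones. The log2 fold change was 1.12 (SE 0.28, 95% interval 0.50 to 1.73; edgeR adjusted p = 0.0599). It passed without distal library 3 (edgeR adjusted p = 0.00743, log2 fold change 1.36). That library held the lowest distal value, so this call is no separate support. Dusp6 also passed with DESeq2 (0.0121), with no minimum count (0.0411) and with the library number as a further term (0.0351). It did not pass with limma-voom (0.104). In edgeR it missed the threshold with DESeq2 size factors (0.056), upper-quartile scaling (0.0564), library totals alone (0.0581) or at least 10 CPM in 3 libraries (0.0674). Nor did it pass without proximal library 1, 2 or 3 (adjusted p = 0.0608, 0.27 and 0.151) or without distal library 1 or 2 (0.255 and 0.186).

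A list of general growth factor response genes, which hold immediate early genes such as Fos and Egr1, was low in the same library. Distal library 3 was the lowest distal library for 38.8% of all tested genes and for 3 of 9 tested members. It was the lowest for 3 of 7 other feedback and target genes and for 11 of 24 adaptors and ERK cascade genes. In the response list it was the lowest for 10 of 11 tested genes. The summed level of the list was 10600, 8270 and 4230 CPM in distal libraries 1 to 3 and 6850, 4770 and 4670 CPM in proximal libraries 1 to 3. The exception was Ccnd1, which encodes the G1 cyclin D1 and was the only gene of the list to pass. Ccnd1 stood at 357, 219 and 241 CPM in proximal and at 465, 499 and 554 CPM in distal libraries, a fitted log2 difference of 0.90 (SE 0.19; edgeR adjusted p = 0.0251); leaving out proximal library 2 or 3 (0.128 and 0.114) or any distal library (0.0614, 0.0779 and 0.0515 for 1 to 3) ended the call. Egr2, an immediate early zinc finger factor, had the second smallest p of the list and did not pass, with 48.5, 52.5 and 16.2 CPM in the 3 distal libraries and a fitted log2 difference of 1.03 (SE 0.41; edgeR adjusted p = 0.347). Without proximal library 1 and distal library 3, 10 of the 11 genes and Dusp6 passed as higher in distal libraries, beside 441 of 9873 tested genes (4.47%) in that fit. The distal library left out there is the one in which these genes, except Ccnd1, were lowest. The proximal library left out had the highest proximal sum of the list, at 6850 CPM beside 4770 and 4670 CPM. The calls of that fit therefore depend on which libraries were left out and are no separate support. The part of what sets this list apart in distal library 3 in the Dusp6 value was not tested.

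**Figure D4:**
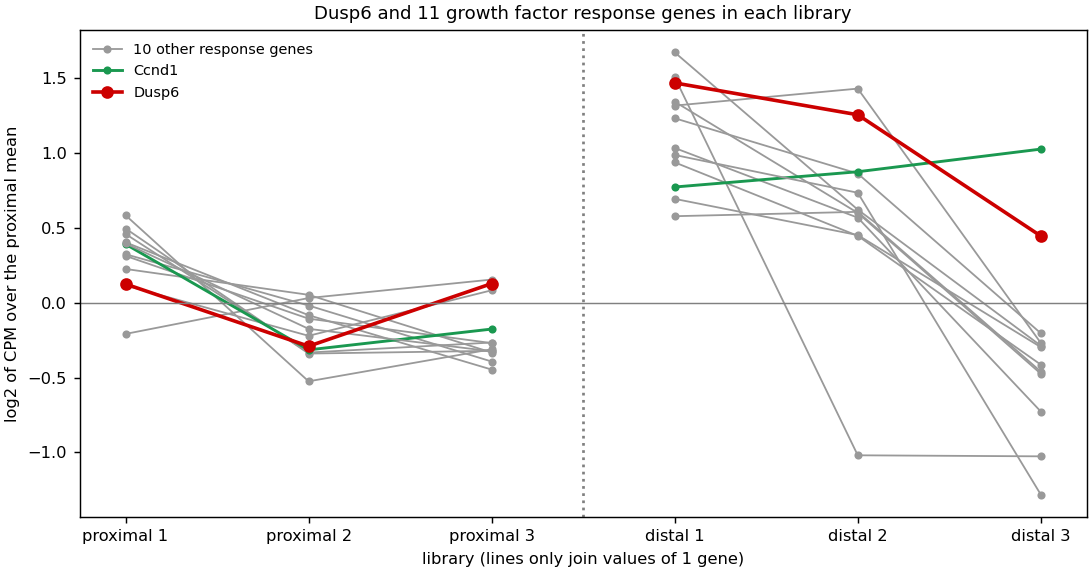
Level of Dusp6 (red), Ccnd1 (green) and the 10 other tested growth factor response genes (grey) in each library, as log2 of CPM over the gene's mean in the 3 proximal libraries. In distal library 3 the grey genes fall below 0, Dusp6 stays above 0, and Ccnd1 is at its highest.

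A further 102 genes were listed as other pathway genes, those of the general growth factor response list included. Of these, 85 were deposited and 71 tested, and 1 passed in each direction, near the shares of 1.11% (distal) and 2.27% (proximal) over all tested genes. The distal call was Ccnd1, from the response list, and the proximal call was Fgf1. The 71 genes had a median log2 fold change of 0.021, beside 0.0092 for all tested genes. That of the response list alone was 0.463. These lists were chosen with earlier results of these data known.

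Among other ligands, 7 of 21 listed genes were tested and 1 passed. Fgf1, a ligand that binds all FGF receptors, had 11, 14 and 19 counts proximally against 3, 1 and 1 distally (edgeR adjusted p = 0.0123). It met the minimum count only through the proximal libraries, where it is high, and a minimum of 10 CPM in 3 libraries leaves it untested, with no other ligand called. Pooled, 5 distal against 44 proximal counts gave a ratio of 0.128, with an exact 95% interval from 0.0396 to 0.322. Leaving out proximal library 2 or 3 (adjusted p = 0.0696 and 0.0649) or distal library 2 (0.0674) ended the call. Fgf12, an intracellular FGF homologue that is not secreted, did not pass, its mean level being 7.06 ± 2.21 CPM proximally and 15.6 ± 6.71 CPM distally (SD, n = 3; edgeR adjusted p = 0.202). Fgf7 and Fgf9, named after their values were seen, encode ligands that act mainly between mesenchyme and epithelium and had fewer distal counts. Fgf7 was under the minimum count, with 46 proximal and 10 distal counts in all (ratio 0.245, exact 95% interval 0.11 to 0.491). Fgf9 had 56 and 18 counts (ratio 0.362, exact 95% interval 0.20 to 0.624) and did not pass the test (edgeR adjusted p = 0.206). These intervals cover counting error only.

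No gene passed among 4 tested other receptors and co-receptors (2 at an unadjusted p under 0.05), 18 heparan sulfate cofactors (5), 24 adaptors and ERK cascade genes (0) or 7 other feedback and target genes (2), in edgeR's test. Of all tested genes, 1031 of 9512 (10.8%) had an unadjusted p under 0.05. Median log2 fold changes of these lists were -0.0074, -0.047, -0.039 and -0.10. With DESeq2 and limma-voom the other pathway genes also had 1 call in each direction.

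Flrt2, a membrane protein of a family that binds FGF receptors, averaged 141 ± 17.8 CPM proximally and 196 ± 10.9 CPM distally (SD, n = 3; edgeR adjusted p = 0.155). Ncam1, an adhesion molecule that can engage FGF receptors, averaged 81.6 ± 24.4 and 55.4 ± 10.2 CPM (edgeR adjusted p = 0.425).

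Of the heparan sulfate carriers, the syndecan gene Sdc1 averaged 269 ± 33.9 CPM proximally and 412 ± 67.6 CPM distally, a fitted log2 difference of 0.61 (SE 0.16) that did not pass (edgeR adjusted p = 0.0747). The glypican gene Gpc4 averaged 61.5 ± 10.9 and 36.9 ± 9.16 CPM, with a fitted log2 difference of -0.74 (SE 0.24) and an edgeR adjusted p of 0.175. Within the cascade, fitted log2 fold changes ran from -0.68 to 0.67. The members with the smallest p were Pik3r1, a regulatory subunit of phosphoinositide 3-kinase (-0.59, SE 0.27), and the kinase gene Braf (0.67, SE 0.33), with edgeR adjusted p of 0.473 and 0.55.

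Of the other feedback genes, Dusp9, an ERK phosphatase gene like Dusp6, stood at 14.7, 9.38 and 14.4 CPM in proximal and at 25.7, 29.7 and 25.6 CPM in distal libraries. Every distal library lay above every proximal one, as for 7.53% of all tested genes. Dusp9 missed the threshold (edgeR adjusted p = 0.0595) at a fitted log2 difference of 1.06 (SE 0.26). Il17rd, which encodes the membrane inhibitor Sef, stood at 48.8, 76.2 and 85.3 CPM in proximal and at 31.7, 40.5 and 55.2 CPM in distal libraries, with overlap, and did not pass (fitted log2 difference -0.74, SE 0.27; edgeR adjusted p = 0.256). The fitted values of these feedback genes thus stood on opposite sides of 0, as did those of Dusp6 and Spry4.

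**Figure D5:**
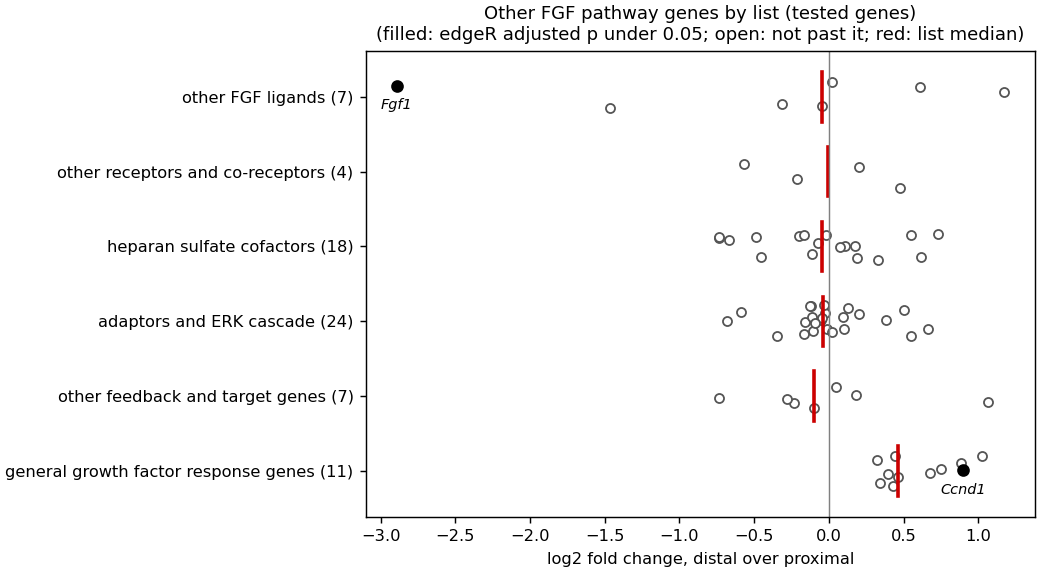
Fitted log2 fold change, distal over proximal, of the tested genes of 6 FGF pathway lists, with the number tested in parentheses; filled points passed an adjusted p of 0.05 and red bars are list medians. Fgf1 and Ccnd1 are the 2 filled points, and 5 of the 6 medians lie close to 0. The median of the general growth factor response genes is 0.463.

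The tested genes whose profile over the 6 libraries lay closest to that of Fgfr2 were Dusp9, Vill and Ccnd1, with root mean square differences of 0.0806, 0.0819 and 0.146 on the log2 scale. For Fgf18 the closest were Gpc4, Nab1 and Ptges, at 0.111, 0.122 and 0.131. Likeness was measured between log2 CPM values centred on each gene's mean, over 8907 other genes whose mean log2 CPM was 3 or more. With 6 libraries in 2 regions, genes of similar fold change are close by this measure.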

How the data were processed

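RNA of sorted progenitors was measured in 3 proximal and 3 distal libraries by bulk MARS-seq, per the labels' protocols. The authors deposited raw counts per gene with no further scaling, and the lowest sum of a gene over all libraries is 6. The deposited normalized counts, a signal that the authors made by dividing each library by 1 factor, were not used. Tools in the submitters' processing notes are TopHat2 and HTSeq, DESeq2, cutadapt 1.8.3 and bcl2fastq 2.17.1.14, and the build is mm10. The sources used here do not give the annotation, the strand setting or any use of molecular identifiers. No column belonged to another series.

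The regional comparison used edgeR (4.0.16, under R 4.3.3) with TMM scaling, filterByExpr (minimum count 10, minimum total 15), the robust quasi-likelihood F test with region as the only term, and Benjamini-Hochberg adjustment over all tested genes at 0.05. The SE was obtained by dividing the absolute log2 difference by the root of F. The procedure was tested on simulated data. Alternatives used limma 3.58.1 and DESeq2 1.42.0. Whether the libraries came from separate embryos is not stated, so p-values measure the spread between libraries, which may be technical. No 2 libraries agreed within sampling noise (chi-square over degrees of freedom 4.69 or more).

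The members, lists, tests and alternatives were chosen with earlier results of these data known. Beside the members, the text names the genes of each list past the threshold and at least the 2 of smallest p and the 3 genes nearest in profile to Fgfr2 and to Fgf18; Fgf7, Fgf9, Fos and Egr1 were added after their values were seen. Gene positions are from GENCODE M21 (GRCm38) and promoters from RefSeq. Annotated exons of Fgfr2 overlap those of Ctbp2, and those of Fgfr1, Fgfr3 and Spry1 overlap antisense or unclassified transcripts, in each case outside the last 1000 bases of the member. Of marker lists of other cells, endothelium summed to 3.46 to 10.5 CPM, nerve and Schwann cells to 6.48 to 20.4 CPM and blood to 0.632 to 58.6 CPM over the 6 libraries. Of 8 tendon precursor markers, 2 passed as higher in distal libraries (Scx and Kera) and 1 in proximal ones (Col1a2). Kera, with 8, 6 and 7 proximal counts, met the minimum count only through the distal libraries, where it is high. The 8 markers had a median log2 fold change of -0.138. Their sum, 3120 to 3290 CPM in proximal and 3530 to 5250 CPM in distal libraries, is mostly Scx and Col1a2.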

Additional observations from a re-analysis of the deposited data

How the results depend on the processing

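Over all genes, calls higher in distal and proximal libraries numbered 106 and 216, ranged from 42 to 114 and 114 to 220 when 1 library was left out, and were 42 and 101 at an adjusted p of 0.01, 441 and 421 after both of proximal 1 and distal 3 were left out, and 184 and 281 with the replicate block. Members called higher in distal libraries numbered 0 to 1 when 1 library was left out (Fgfr2 without proximal library 1, Fgfr3 without distal library 2 and Dusp6 without distal library 3), 1 with library totals alone or a minimum log2 change of 1, and 0 at an adjusted p of 0.01. Members called higher in proximal libraries numbered 0 to 2 when 1 library was left out, 1 with DESeq2 or limma-voom, and 0 with library totals alone, an adjusted p of 0.01 or a minimum log2 change of 1. Other pathway genes called higher in distal libraries numbered 0 to 5 when 1 library was left out and 3 with the replicate block. With both libraries left out they numbered 12, of which 10 were general growth factor response genes. They numbered 0 at an adjusted p of 0.01 or with a minimum log2 change of 1. Those higher in proximal libraries numbered 0 to 1 when 1 library was left out, 2 with no filter, 6 with both libraries left out, 3 with the replicate block, and 0 with at least 10 CPM in 3 libraries or an adjusted p of 0.01. The causes were not tested. No member or named pathway gene that passed changed sign in any alternative run. Etv5 changed sign in limma-voom (-0.019), with both libraries left out (-0.017) and in 3 fits without 1 library (values from -0.14 to 0.11 over the 6), Fgfr1 and Spry2 with both libraries left out (-0.060 and 0.13). Log2 ratio differences without 1 library ran from -2.30 to -1.72 for Fgf18 to Fgfr2, 0.595 to 1.2 for Fgfr2 to Fgfr1, 0.90 to 1.69 for Fgfr3 to Fgfr1 and 0.439 to 0.708 for Fgfrl1 to Fgfr1. The titles share 3 numbers across regions, and what these mark is not stated. For this reason the main fit did not treat libraries as pairs, and the replicate block is an alternative. Correlations of deviations between same-numbered libraries were 0.354, -0.136 and 0.479 for numbers 1 to 3. The value for number 3 was the highest between regions, while proximal 1 had 0.359 with distal 2. With 3 libraries per region, these values cannot decide whether the numbers mark pairs. With both libraries left out, and also with the replicate block, 3 members passed in distal and 2 in proximal libraries, Dusp6 among them (adjusted p = 0.00214 and 0.0351).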
